A study of Mus musculus with 2 samples.

Results

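The cells described here are keratinocytes of the mouse hair follicle in which at least 3 of the 5 genes Gm973, Krtdap, Grb14, Fbln1 and Sostdc1 were detected. They number 537 of 6828 kept keratinocytes and of 6959 kept cells, from 11672 barcodes in 2 libraries. Kept cells had 1000 or more genes detected and no more than 10% of their unique molecular identifiers (UMIs, which count captured RNA molecules) from mitochondrial genes. It counted as a keratinocyte when it held at least 2 UMIs of Krt5 and Krt14 together, the paired keratins of basal epithelial cells. Members also had to stay within limits on 15 genes that mark other follicle cells: at most 1 of Krt24, Tgm5, Grem1, Chat and Myoc, at most 2 of Gdf10, Scrg1, Nppc and Nrg1, and at most 2 of Defb6, Cst6, Krt79, Krt77, Cidea and Ly6d. All 20 genes were measured in the same cells, so the choice rests on the data it describes, and no test of the members against the remaining cells is given.

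Both libraries belong to 1 group: wild-type mice of strain C57BL/6;CD1 at postnatal day 32, in anagen, when follicles grow a new hair shaft. The cells came from skin and were sorted for the surface protein CD34, a marker of follicle stem cells, and for H2BGFP, a fluorescent histone under the keratin 14 (K14) promoter, which is active in basal keratinocytes of follicle and epidermis alike. Libraries were made with the 10x Chromium 3′ kit, version 3. No source used here gives the number of animals behind each library, so the spread between the libraries may be technical.

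Hair follicle stem cells reside in the bulge, a niche in the outer epithelial layer of the follicle, and leave quiescence when a new hair cycle begins. Signals of the BMP family hold them at rest and WNT signals promote growth, so secreted inhibitors of either family are part of the niche. Sostdc1 encodes such a secreted inhibitor, which binds BMP ligands and a WNT co-receptor. Below the bulge, the outer root sheath elongates with the growing hair by division of its basal cells.

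The libraries contributed unequally. Replicate 1 held 126 members among 3841 kept keratinocytes, or 3.28% (exact 95% binomial interval 2.74 to 3.89). Replicate 2 held 411 among 2987, or 13.8% (12.5 to 15.05). The mean share was 8.52%, with an interval in each library that did not reach the other. Such intervals cover counting error only. The limits removed cells unequally as well: of the cells with 3 or more of the 5 genes, 33 of 159 (20.8%) exceeded a limit in replicate 1 and 318 of 729 (43.6%) in replicate 2. In replicate 2, 301 of these 318 exceeded the limit on Krt24, Tgm5, Grem1, Chat and Myoc, against 12 of 33 in replicate 1.

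The libraries also stood apart within the members. Of 5837 genes, 9.37% differed at least 2-fold between the members of replicate 1 and those of replicate 2, against 2.06% between the other keratinocytes of the same libraries. The member sums were smaller, so counting error is larger in them. Sms, which encodes spermine synthase, was at 14.3 CPM (a gene's UMIs summed over cells and scaled to a common total) in members of replicate 1 and at 479 CPM in those of replicate 2. It was at 8.15 and 91.5 CPM in the other keratinocytes, so it was higher in replicate 2 on both sides. Gnmt, a methyltransferase, went the other way in members, at 442 CPM in replicate 1 and 74.3 CPM in replicate 2, and stood at 205 and 303 CPM in the others. Wfdc18 was at 134 and 19.3 CPM in members and at 103 and 44.4 CPM in the others. Each result is therefore given for each library. The libraries shared 11 barcodes, of which 1 was a member in both.

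Among the 5 genes, Sostdc1 was the most widely detected. It had a UMI in 100% of the 126 members of replicate 1 and in 96.6% of the 411 of replicate 2. Gm973 was detected in 83.3% and 92.7%. Fbln1, which encodes the extracellular matrix protein fibulin-1, was detected in 58.7% and 81.3%. Grb14, an adaptor that binds the insulin receptor, was detected in 61.1% and 74.5%. Krtdap, which encodes a small secreted protein of differentiating keratinocytes, was detected in 19.8% and 16.5% of members only. The working name of these cells opens with Krtdap, whereas 80.2% of members in replicate 1 and 83.5% in replicate 2 held no UMI of it. Sostdc1 and Gm973 describe them better, and they are called members below.

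**Figure D1:**
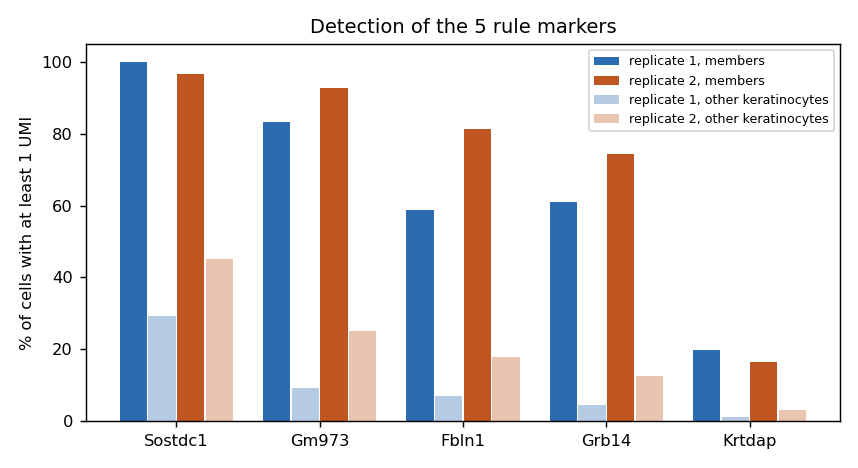
Share of cells with at least 1 UMI (vertical axis, percent) of each of the 5 genes that chose the members, for members (dark bars) and other keratinocytes (pale bars) of replicate 1 (blue) and replicate 2 (orange). Sostdc1 reaches 100% and 96.6% of members, and Krtdap 19.8% and 16.5%.

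Detection depends on depth, and the members were deep. After thinning each cell to 5000 UMIs, Sostdc1 was detected in 88.0% of members of replicate 1 and 74.0% of replicate 2, against 20.5% and 36.1% of other keratinocytes. Gm973 was then detected in 47.2% and 61.0% of members, against 5.29% and 18.0%. Cells with under 2 UMIs of Krt5 and Krt14, which should lack keratinocyte transcripts, gave the level reached by free RNA or other cells. Of these 77 and 54 cells, with a median of 10636 and 11955 UMIs, Gm973 was found in 3.90% and 0%, where 0 of 54 allows a share of up to 5.56%. After thinning, Sostdc1 was found in 7.81% and 0% of them, Grb14 in 4.69% and 0%, and Krtdap in 6.25% and 0%. The thinned shares of members were higher for each of these, with Grb14 at 28.8% and 42.2% and Krtdap at 14.4% and 10.0%. Members were chosen by detection of these same genes, so a higher share was built in and does not support the choice. Fbln1 is also a gene of connective tissue. Its thinned share was 27.2% and 48.3% in members and 29.7% and 12.5% in the cells with few keratin UMIs, so in replicate 1 it was no higher in members than in this background.

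The starts of Gm973 and Krtdap are shown because both held, in the 150 bases before the annotated start, the letters TGANTCA of an AP-1 site. The window before Krtdap is cut where an annotated exon of that gene begins, 9 bases before the start. Capitals mark this motif and, in Krtdap, the letters TATAAA of a TATA box. Both stretches are from RefSeq on GRCm38.p6, are written 5′ to 3′ and lie on the plus strand, at chr1:59516114-59516263 for Gm973 and chr7:30787755-30787895 for Krtdap.
Gm973: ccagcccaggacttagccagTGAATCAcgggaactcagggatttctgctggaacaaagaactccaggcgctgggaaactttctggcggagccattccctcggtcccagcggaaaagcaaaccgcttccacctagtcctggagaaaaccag
Krtdap: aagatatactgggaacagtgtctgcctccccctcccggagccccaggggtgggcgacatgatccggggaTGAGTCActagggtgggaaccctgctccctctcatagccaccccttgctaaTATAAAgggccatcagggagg
The AP-1 letters began 130 bases before the start of Gm973 and 81 bases before that of Krtdap, and the pattern TGANTCA matches them on both strands. Over 27025 promoters with windows of 150 bases, 4.27% held TGANTCA on either strand and 8.08% held TATAAA. Neither motif was found in that window of Grb14, or of either annotated start of Fbln1. Instead, the letters GGGCGG of a GC box, found in 29.0% of all promoters, occurred before Grb14 and before the second start of Fbln1. CCAAT, in 25.3% of promoters, and CTTTGA, in 8%, were in none of these windows. Sostdc1 had no entry in the promoter table. A match describes the letters and is not evidence of binding.

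The levels of the 5 genes, which chose the members, were as follows. Sostdc1 was at 523 CPM (987 UMIs) in members of replicate 1 and 485 CPM (3351 UMIs) in those of replicate 2, and at 92.2 and 304 CPM in other keratinocytes. Gm973 (chr1:59516264-59636417 on GRCm38) was at 118 and 207 CPM in members, against 12.5 and 67.5 CPM. Fbln1 was at 67.8 and 131 CPM, against 9.39 and 36.9 CPM. Members were above the others in both libraries for each gene, which the rule favours, with a narrower gap in replicate 2. The others include the cells with 3 or more of the genes that exceeded a limit, 33 in replicate 1 and 318 in replicate 2. Grb14 was at 54.0 and 101 CPM, against 4.68 and 21.2 CPM. Krtdap (chr7:30787896-30791097) was at 111 and 142 CPM, against 8.27 and 30.1 CPM.

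Krtdap owed its level to few cells. In replicate 1, 25 members held its 210 UMIs, and the 5 highest cells held 73.3% of them. In replicate 2, 68 members held 983 UMIs, of which the 5 highest cells held 48.1%, and 1 cell held 154. Dmkn, which lies beside Krtdap and encodes dermokine, another secreted keratinocyte protein, was at 1513 and 1910 CPM in the Krtdap-positive members, against 691 and 771 CPM in the Krtdap-negative ones. Sbsn, the third gene of that neighbourhood, was at 1053 and 607 CPM against 602 and 299.6 CPM. The keratins of differentiated epidermis stayed low on both sides. Krt1 was at 4.90 and 0 CPM in the Krtdap-positive members, and Krt10 at 46.5 and 34.7 CPM. Basal Krt5 was at 4164 and 4451 CPM in them, against 3589 and 3657 CPM without Krtdap. For Krt14 and Krt15 the libraries went opposite ways. Krt14 was at 6582 and 5438 CPM with Krtdap, against 7820 and 4344 CPM without it. Krt15 was at 7177 and 4837 CPM, against 3549 and 4955 CPM.

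The combination of genes differed between the libraries. Gm973, Grb14, Fbln1 and Sostdc1 without Krtdap was the commonest set in replicate 2, in 172 of 411 members (41.8%), and was found in 13 of 126 (10.3%) of replicate 1. In replicate 1 the commonest was Gm973, Grb14 and Sostdc1, in 44 members (34.9%), followed by Gm973, Fbln1 and Sostdc1, in 36 (28.6%). Exactly 3 of the genes were found in 98 of 126 members of replicate 1 and in 186 of 411 of replicate 2. All 5 were found in 1 and 28 members. So 77.8% of members in replicate 1 and 45.3% in replicate 2 lay at the threshold of 3 genes.

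The share of members was larger among deeper cells. Members held a median of 14577.5 UMIs in replicate 1 and 15151 in replicate 2, against 9858 and 9311 in other keratinocytes. In replicate 2, members made up 5.52% of keratinocytes with 5000 to 10000 UMIs, 14.7% at 10000 to 15000, 26.6% at 15000 to 20000 and 43.9% at 20000 to 30000. In replicate 1 the same bands held 1.93%, 2.77%, 5.98% and 12.2%. When the rule was applied after thinning to 5000 UMIs, 43 of 3637 keratinocytes (1.18%) qualified in replicate 1 and 237 of 2797 (8.47%) in replicate 2, so the order of the libraries held at equal depth. Of these, 38 and 181 were members without thinning. The remainder had exceeded a limit before thinning.

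**Figure D2:**
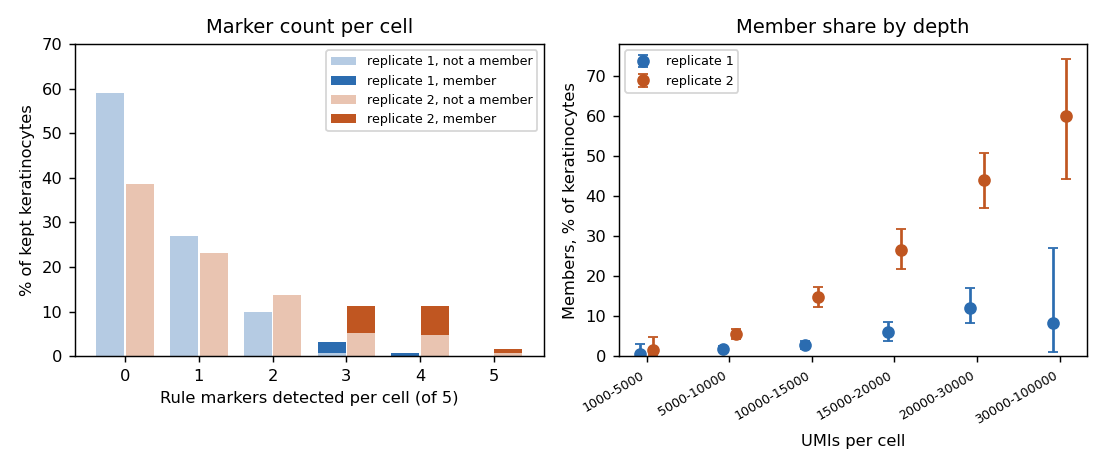
Left, share of kept keratinocytes (percent) by the number of the 5 genes detected per cell, with members in dark colour and cells that are not members in pale colour. Right, members as a percent of keratinocytes by UMIs per cell, with exact 95% binomial intervals. Between the bands of 5000 to 10000 and of 20000 to 30000 UMIs, the share goes from 1.93% to 12.2% in replicate 1 and from 5.52% to 43.9% in replicate 2.

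The mitochondrial and ribosomal shares of members were close to those of the other keratinocytes, and Malat1 and doublet scores were less so. The median mitochondrial share was 6.30% of UMIs in members of replicate 1 and 4.62% in those of replicate 2, against 6.06% and 4.38% in other keratinocytes. The ribosomal protein share was 21.8% and 26.1%, against 21.1% and 23.2%. The nuclear transcript Malat1 took 0.897% and 0.674% of UMIs, against 1.24% and 1.77%. Doublet scores by rank marked 19 members (15.1%) of replicate 1 and 20 (4.87%) of replicate 2, against 5.11% and 4.15% of the others. Members were thus marked more often in replicate 1, and the part of doublets in the results was not tested beyond leaving those cells out. Xist, transcribed from the inactive X chromosome of females, was found in 0 and 2 members, and a Y-linked gene in 81.7% and 82.0%.

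Cells just below the threshold lay between the members and the other keratinocytes in the 4 genes given here. For Gm973 and Sostdc1 the rule itself largely set this order, and only Kitl and Tagln lie outside the rule. The 316 and 294 keratinocytes with exactly 2 of the genes and within the limits had Gm973 at 62.9 and 112 CPM, Sostdc1 at 315 and 387 CPM, Kitl at 33.7 and 29.8 CPM and Tagln at 462 and 495 CPM. The members with exactly 3 genes had Kitl at 52.7 and 59.5 CPM and Tagln at 187 and 73.6 CPM. Members with 4 or 5 genes had Kitl at 58.0 and 77.9 CPM and Tagln at 103 and 46.3 CPM. Tagln was thus lower, and Kitl higher, with each step from 2 to 3 to 4 or more genes in both libraries.

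Outside the 20 genes of the rule, 72 of 21272 genes (0.338%) were at least 2-fold higher in members than in other kept keratinocytes in both libraries, and 269 (1.26%) at least 2-fold lower. Among 5824 genes at a mean of 20 CPM or more, these were 26 (0.446%) and 110 (1.89%). Differences are log2 ratios with 1 CPM added, given for replicate 1 and then replicate 2. Lower genes thus outnumbered higher ones in both counts. These numbers describe the cells chosen and carry no test. In replicate 2 alone 250 genes were 2-fold higher and 897 lower, and in replicate 1 alone 618 and 528. Against keratinocytes with 0 or 1 of the 5 genes, a comparator chosen after seeing the data, 243 were higher and 330 lower in both libraries. Without the cells of highest doublet score the counts were 83 and 370.

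The 20 highest genes included a few with roles in signalling. Kitl, which encodes the ligand of the receptor KIT and acts on melanocytes, was at 54.0 CPM in members and 12.5 CPM in others of replicate 1, and at 70.6 and 21.8 CPM in replicate 2. Its difference was 2.02 and 1.65 on the log2 scale. Lifr, a receptor chain for leukaemia inhibitory factor, was at 19.1 and 27.8 CPM in members, against 7.10 and 10.5 CPM, a difference of 1.31 and 1.32. Lgr6, a receptor of R-spondins that marks stem cells above the bulge, was at 13.8 and 31.1 CPM, against 1.76 and 13.7 CPM. Its difference was 2.42 in replicate 1 and 1.13 in replicate 2. Tgfb3, a transforming growth factor, was at 15.4 and 36.9 CPM against 6.15 and 15.3 CPM. For each of these 4 genes the libraries agreed in direction, and for Lgr6 they differed in size.

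Transcription factors were also among the highest. Bcl11b, a zinc-finger factor needed in skin epithelium and T cells, was at 59.3 and 118 CPM in members and 20.7 and 43.1 CPM in others, a difference of 1.47 and 1.43. Hoxb9, a homeobox gene that gives positional identity along the trunk, was at 20.6 and 21.01 CPM against 4.49 and 5.41 CPM, a difference of 1.98 and 1.78. Klf2 was at 80.5 and 102 CPM against 22.6 and 43.0 CPM, a difference of 1.79 and 1.23. Tshz2 was at 12.7 and 35.2 CPM against 5.03 and 11.9 CPM. Members were higher in both libraries for all 4.

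Emp1, Emp3, Cav1, Has2, Dmkn and Moxd1 were also among the 20 highest. Emp1 and Emp3 encode epithelial membrane proteins, and Cav1 encodes the coat protein of caveolae. Emp1 was at 443 and 338 CPM in members, against 139 and 144 CPM. Emp3 was at 40.2 and 57.8 CPM, against 8.54 and 18.8 CPM, and Cav1 at 91.1 and 132 CPM, against 29.6 and 49.1 CPM. Has2, which makes hyaluronan, was at 15.9 and 26.8 CPM, against 5.22 and 9.49 CPM. Dmkn was at 869 and 970.4 CPM, against 231 and 444 CPM, a difference of 1.90 and 1.13. Moxd1, a monooxygenase-like protein, was at 61.4 and 97.6 CPM against 11.03 and 44.3 CPM. The remaining genes of the 20 highest were Dnph1, Ifi27l2a, Cystm1, Kif20a, Ablim1 and Dct, with differences between 1.11 and 2.75. Kif20a, a mitotic kinesin, turned to a mean of -0.78 when cells with 3 or more cycling markers were left out on both sides. It was then at 0 CPM in members of both libraries and at 0.57 CPM in others of replicate 1. With 1 CPM added, the sign of so low a gene says little. Several of these genes were also abundant in the cells with under 2 UMIs of Krt5 and Krt14, which held Emp1 at 789.9 and 489 CPM, Emp3 at 685 and 992 CPM, Cav1 at 255 and 125 CPM and Klf2 at 244 and 387 CPM. The part of RNA from such cells in these differences was not tested.

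Dct came first of the genes outside the rule at 20 CPM or more by the smaller of its library differences, which were 2.75 and 2.30, and rested on few cells. Single libraries held larger differences, such as 2.38 for Sms in replicate 2. Dct encodes an enzyme of melanin synthesis. Its 111 UMIs in members of replicate 1 lay in 10 cells, with 95.5% in the 5 highest. Its 149 UMIs in replicate 2 lay in 26 cells, with 83.9% in the 5 highest. Those 10 cells also held 28 UMIs of the melanocyte gene Pmel, where the other 116 members held 0, and the 26 cells held 53 against 3 in the other 385. Krt14 was at 8805 and 5744 CPM in the Dct-positive members. The rule asked every member for Krt5 or Krt14 UMIs, so this level does not tell what these cells are. The 6 melanocyte markers together summed to 94.2 and 38.8 CPM in members and 16.2 and 11.6 CPM in others. None of them was at 0 over the members of both libraries together, while Tyr had 0 UMIs in members of replicate 2. The part of RNA from melanocytes in this result was not tested. In the Dct-negative members Kitl was at 54.2 and 69.6 CPM, near its level in all members.

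**Figure D3:**
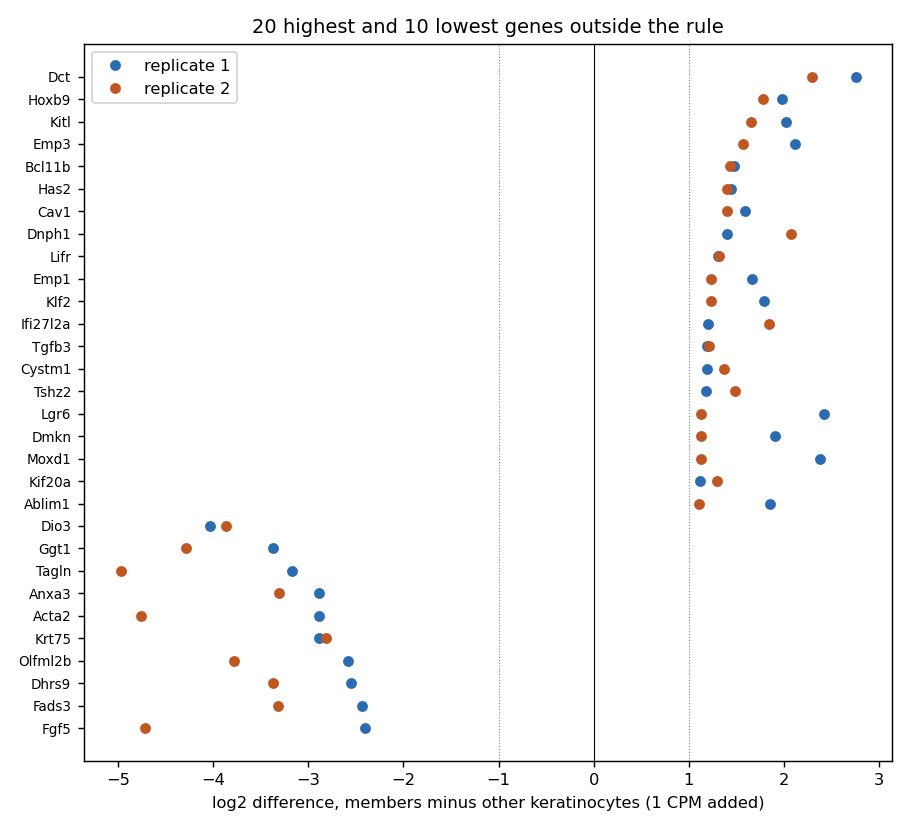
Difference between members and other keratinocytes on the log2 scale (1 CPM added; horizontal axis) for the 20 highest and 10 lowest genes outside the rule, with replicate 1 in blue and replicate 2 in orange. Dotted lines mark 2-fold. Values run from 1.11 to 2.75 among the higher genes and from -2.40 to -4.97 among the lower ones.

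Tagln and Acta2, which encode contractile proteins, were among the 10 lowest genes. Tagln, which encodes the actin-binding protein transgelin, was at 167 CPM in members and 1512 CPM in others of replicate 1, and at 57.2 and 1827 CPM in replicate 2. Its difference was -3.17 and -4.97. Acta2, smooth muscle actin, was at 95.8 and 23.3 CPM in members, against 716 and 659 CPM. Myl9, a myosin light chain, was at 85.8 and 28.4 CPM, against 278 and 236 CPM. The 3 muscle and pericyte markers measured at 20 CPM or more were thus all at least 2-fold lower, and the 7 of the list summed to 349.9 and 115 CPM in members, against 2512 and 2735 CPM. The cells with under 2 UMIs of Krt5 and Krt14 held Tagln at 102 and 592 CPM, below the 1685 and 2629 CPM of keratinocytes with 0 or 1 of the 5 genes. Its level was thus higher in those keratinocytes than in the cells with few keratin UMIs.

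The rest of the 10 lowest genes had varied roles. Krt75, a keratin of the companion layer, was at 6.88 and 4.20 CPM in members, against 57.4 and 35.5 CPM, a difference of -2.89 and -2.81. Fgf5, which ends the growth phase, was at 7.94 and 1.30 CPM, against 46.3 and 59.7 CPM. Dio3, which inactivates thyroid hormone, was at 2.12 and 1.45 CPM, against 49.9 and 34.7 CPM, from only 4 and 10 UMIs in members. Its difference was -4.03 and -3.87. Ggt1, a glutathione-degrading enzyme, was at 4.24 and 3.19 CPM against 53.1 and 80.9 CPM, and Anxa3, an annexin, at 18.5 and 10.9 CPM against 144 and 117 CPM. Olfml2b, Dhrs9 and Fads3 completed the 10 lowest, with differences between -2.43 and -3.78. All 10 were lower in members of both libraries.

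The bulge and outer root sheath lists showed no common direction. Of 15 bulge stem cell genes at 20 CPM or more, 6 were higher and 1 lower in both libraries, none by 2-fold in both, with medians of 0.50 and -0.04. All 5824 genes had medians of 0.02 and 0.01, with 33.8% higher and 29.2% lower in both libraries. Lhx2, a transcription factor that maintains bulge stem cells, was at 307 and 312 CPM in members, against 177 and 184 CPM. Cd34, the protein used for the sort, was at 60.4 and 44.2 CPM, against 80.2 and 108 CPM, so it was lower in members of both libraries. Nfatc1, a bulge quiescence factor, was at 51.9 CPM against 7.03 CPM in replicate 1 and at 25.4 CPM against 19.8 CPM in replicate 2. Of 12 outer root sheath genes, 4 were higher and 3 lower in both libraries, and Krt75 alone was lower by 2-fold in both.

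BMP and WNT genes were mixed, in a population chosen in part by the inhibitor Sostdc1. Of all 5824 genes, 33.8% were higher and 29.2% lower in both libraries. Of 13 BMP pathway genes at 20 CPM or more, 2 were higher and 2 lower in both libraries, with medians of 0.15 and -0.31. Fst, which encodes follistatin, a secreted inhibitor of activin and BMP, was at 781 and 375 CPM in members, against 195 CPM in others of each library. Id1, a target of BMP signalling, was at 946 CPM against 945 CPM in replicate 1 and at 275 CPM against 764 CPM in replicate 2. Members of the libraries therefore differed in Id1. Of 15 WNT pathway genes, 8 were higher and 2 lower in both libraries, and 7 were higher and 4 lower with TMM scaling. Lgr4, an R-spondin receptor like Lgr6, was at 129.7 and 107 CPM, against 64.6 and 63.4 CPM, and Fzd1, a WNT receptor, at 43.4 and 24.6 CPM, against 93.3 and 84.3 CPM.

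Other pathway lists follow, of which only those around Grb14 and Fbln1 were given by the role of a rule gene. They are small, and their counts stand beside 33.8% of all 5824 genes higher and 29.2% lower in both libraries. Of 12 insulin signalling genes, the list around Grb14, 3 were higher and 5 lower in both libraries, and Igfbp5, which binds insulin-like growth factors, was at 30.2 and 17.2 CPM against 85.2 and 67.3 CPM. Of 16 genes of basement membrane and elastic fibres, the list around Fbln1, 5 were higher and 9 lower. In that list Fn1, fibronectin, was at 28.6 and 23.0 CPM against 108 and 94.6 CPM, and Npnt, nephronectin, was at 77.8 and 91.7 CPM against 17.0 and 58.4 CPM. Of 6 hedgehog genes, 4 were higher and 1 lower. Ptch1, the hedgehog receptor and target, was at 57.7 CPM against 52.7 CPM in replicate 1 and at 209.9 CPM against 99.99 CPM in replicate 2. Of 10 EGF receptor genes, 2 were higher and 6 lower, and of 6 Notch genes 1 was higher and 3 lower, with Hes1, a Notch target, at 138 and 34.6 CPM against 162 and 98.5 CPM.

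Genes of G2 and mitosis were higher in members of both libraries. The 12 cycling markers had medians of 0.50 and 0.93, with 10 of them higher in both libraries. The S phase, replication histone and G1 cyclin lists had medians near or below 0 in replicate 1. Of 38 G2 and mitosis genes at 20 CPM or more, 38 were higher in both libraries, with medians of 0.59 and 1.03, and 36 of 38 remained so with TMM or DESeq2 scaling. None of these 38 was 2-fold higher in both. Kif20a, the mitotic kinesin given above, lies outside this list and was 2-fold higher in both, with differences of 1.12 and 1.30. Ccna2, cyclin A2, was at 64.1 and 83.9 CPM in members, against 36.5 and 33.1 CPM, and Kif11, a spindle motor, at 39.2 and 50.0 CPM, against 20.7 and 21.6 CPM. S phase genes had medians of 0.00 and 0.69, with 15 of 30 higher in both libraries and 9 of 30 under either other scaling. Of 9 replication histone genes, 4 were higher and 2 lower, with medians of -0.15 and 0.64. Among them Hist1h1c, a linker histone, was at 156 and 69.0 CPM in members, against 328 and 134 CPM. Of 6 genes of the G1 cyclin list, 2 were higher and 1 lower, and with TMM or DESeq2 scaling 1 was higher and 2 lower. In that list Ccnd2, cyclin D2, was at 136 and 85.5 CPM, against 198 and 149 CPM. Ribosome biogenesis genes had medians of 0.01 and 0.57, and these turned to -0.11 and 0.55 with TMM. TMM and DESeq2 moved the median of all genes in replicate 1 by -0.12, and with TMM 23.9% of all genes were higher and 36.7% lower in both libraries. The mitosis list was thus above all genes in each library, whereas the S phase and ribosome biogenesis lists were so in replicate 2.

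**Figure D4:**
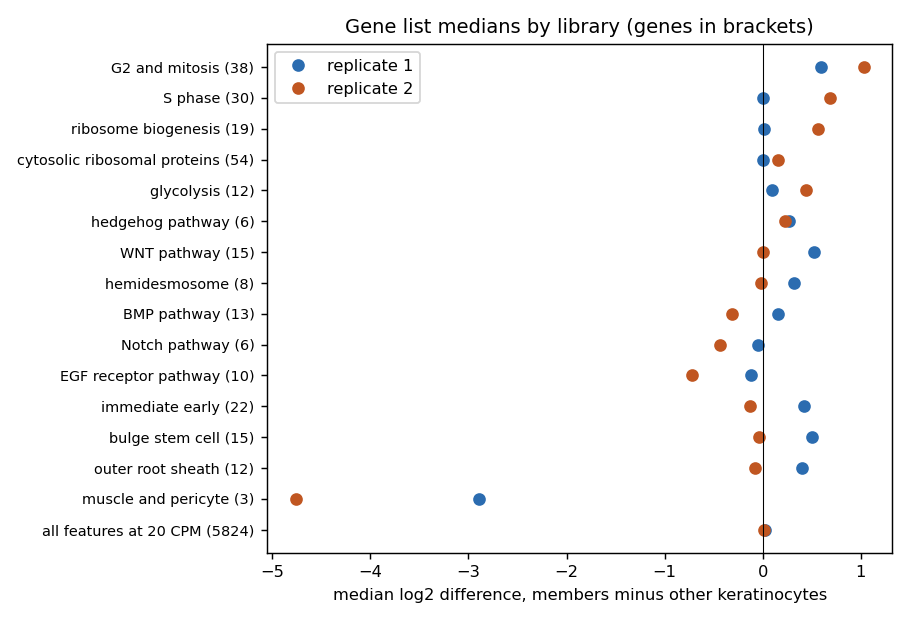
Median difference between members and other keratinocytes (log2, horizontal axis) of 15 gene lists and of all 5824 genes at 20 CPM or more, with replicate 1 in blue, replicate 2 in orange and the number of genes in brackets. G2 and mitosis genes are at 0.59 and 1.03, muscle and pericyte genes at -2.89 and -4.76, and all genes at 0.02 and 0.01.

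Counted per cell, 37.6% of members in replicate 1 (exact 95% interval 29.1 to 46.7) and 52.2% in replicate 2 (47.2 to 57.1) had at least 3 of 12 cycling markers after thinning to 5000 UMIs. Other keratinocytes had 28.4% (26.9 to 29.9) and 24.6% (22.9 to 26.4). Without thinning the shares were 46.8% and 66.9% of members, against 36.3% and 31.2%. These intervals cover counting error among the cells of each library only, and they are not a test of members against others. With the rule applied after thinning, 43 and 237 cells were chosen, and 25.6% and 47.3% of them were cycling by this count. In replicate 1 the share was then below 28.4%, the share of the keratinocytes that were not members at full depth. Without the highest doublet scores the shares of members were 32.1% and 51.8%. A higher share in members was therefore kept in replicate 2 under both settings. In replicate 1 it was not kept with the rule applied after thinning, where only 43 cells were counted. Free RNA of cycling genes also enters such calls. In replicate 2 the share was 44.8% among members with 3 of the genes and 58.2% among those with 4 or 5, and in replicate 1 it was 34.7% and 48.1%. The keratinocytes with exactly 2 of the genes and within the limits had 29.0% in replicate 2 and 41.3% in replicate 1, the latter above the members' 37.6%.

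Krt15 was lower in cycling than in non-cycling members, and Krt17 was nearly equal. Krt15, a keratin of the bulge and basal layer, was at 2923 and 3924 CPM in members with at least 3 cycling markers and at 6311 and 8314 CPM in those with fewer. It was also lower in the cycling cells among the other keratinocytes, at 2800 and 4486 CPM against 3469 and 6898 CPM. Krt17 was at 7790 and 5625 CPM in the cycling members and at 7983 and 5584 CPM in the rest. Krt5 was at 3620 and 3483 CPM in the cycling members and at 3843 and 4843 CPM in the rest, a smaller gap in replicate 1 than in replicate 2. Sostdc1 was at 479 and 431 CPM in the cycling members and at 584 and 669 CPM in the others. In replicate 1, Kitl was at 48.1 CPM in members with at least 3 cycling markers and 62.3 CPM in the rest, and in replicate 2 at 78.8 and 42.8 CPM, so the libraries went opposite ways. Lgr6 was at 1.81 and 30.5 CPM in replicate 1, and at 32.6 and 26.4 CPM in replicate 2. Tagln was at 247 and 54.7 CPM in replicate 1 and 62.3 and 40.3 CPM in replicate 2, below the 1420 and 1585 CPM, and 1324 and 2180 CPM, of the corresponding other keratinocytes.

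Keratinocytes with at least 2 of Krt24, Tgm5, Grem1, Chat and Myoc, called the Krt24 set here, made up most of the cells that the limits removed in replicate 2, and numbered 29 in replicate 1 and 400 in replicate 2. These 5 genes separate them from the members by rule. In replicate 2, Gm973 was at 260 CPM in the Krt24 set and 207 CPM in members, Kitl at 65.1 and 70.6 CPM, Bcl11b at 128 and 118 CPM, Tagln at 59.8 and 57.2 CPM and Sms at 339.7 and 479 CPM. In replicate 1, Gm973 was at 133 CPM in the Krt24 set and 118 CPM in members, Kitl at 39.6 and 54.0 CPM, Bcl11b at 50.4 and 59.3 CPM, Tagln at 93.6 and 167 CPM and Sms at 32.4 and 14.3 CPM. Kitl was higher and Tagln lower in both sets than in keratinocytes with 0 or 1 of the 5 genes, where Kitl was at 8.61 and 7.85 CPM and Tagln at 1685 and 2629 CPM. Sostdc1 was at 551 and 1070 CPM in the Krt24 set and at 523 and 485 CPM in members, so it stood apart in replicate 2.

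Krt15 and Cd34 set the members and the Krt24 set apart in both libraries. Krt15 was at 4334 and 4934 CPM in members and at 14662.5 and 14463 CPM in the Krt24 set. Cd34 was at 60.4 and 44.2 CPM in members and at 238 and 235 CPM in the Krt24 set. Dmkn was at 869 and 970.4 CPM, against 2039 and 1741 CPM. The cycling share after thinning was 52.2% of members and 27.6% (23.1 to 32.3) of the Krt24 set in replicate 2, and 37.6% and 3.70% in replicate 1, where the latter is 1 of 27 cells.

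A pair of other sets of keratinocytes, cells with at least 3 of Gdf10, Scrg1, Nppc and Nrg1 and cells with Wfdc18, Pthlh and Dclk1, differed from the members in other genes. The first, 131 and 80 cells, had Kitl at 56.3 and 36.9 CPM and Tagln at 254 and 314 CPM, with 8.46% and 9.21% cycling after thinning. Kitl in replicate 1 was thus close to the 54.0 CPM of members, while the cycling share was lower in both libraries. The second, 389 and 143 cells, had Kitl at 14.99 and 6.70 CPM, Cav1 at 7.30 and 2.44 CPM and Krt17 at 12642.5 and 11532 CPM. Members had Krt17 at 7870 and 5616 CPM. Sms was at 4.804 and 1.83 CPM in the Wfdc18 cells, at 2.87 and 76.95 CPM in the Gdf10 cells, and at 14.3 and 479 CPM in members.

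**Figure D5:**
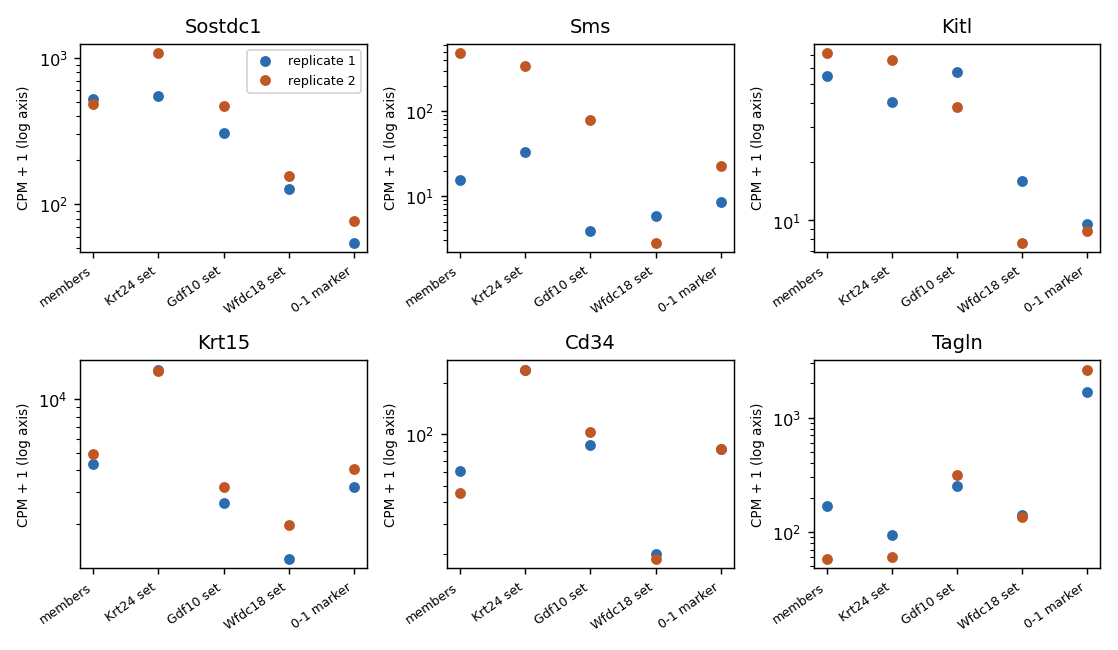
Level of 6 genes (CPM + 1, log axis) in members, in 3 other sets of keratinocytes and in keratinocytes with 0 or 1 of the 5 genes, for replicate 1 (blue) and replicate 2 (orange). Tagln is at 167 and 57.2 CPM in members and at 1685 and 2629 CPM in cells with 0 or 1 gene, and Krt15 is at 4334 and 4934 CPM in members and at 14662.5 and 14463 CPM in the Krt24 set.

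Markers of most other cell types summed to less in members than in other keratinocytes of both libraries. Those of melanocytes, given with Dct, of the dermal papilla and of interfollicular basal epidermis summed to more. The 6 fibroblast markers summed to 82.1 and 142 CPM, against 211 and 272 CPM in other keratinocytes, and none was at 0. Here and below, a marker at 0 had no UMI over the members of both libraries together. The 8 macrophage and dendritic markers summed to 6.88 and 5.80 CPM, against 38.8 and 39.8 CPM, with 4 at 0 in members. The 5 T cell markers summed to 12.2 and 1.88 CPM, against 21.03 and 8.04 CPM, with 2 at 0. Immune and fibroblast markers were thus lower in members. The 7 dermal papilla markers summed to 4.76 and 25.5 CPM, against 2.71 and 10.5 CPM, with 2 at 0. The 5 endothelial markers summed to 14.3 and 6.66 CPM, against 15.5 and 5.30 CPM, with 2 at 0. The 4 erythroid markers summed to 2.65 and 2.75 CPM, against 1.10 and 126 CPM. Endothelial and erythroid markers therefore went opposite ways in the libraries, and the part of RNA from these cell types in the results was not tested. Sebaceous gland markers summed to 239 and 70.8 CPM, against 440.5 and 287 CPM. The 9 markers of interfollicular basal epidermis, which include Krt5 and Krt14, summed to 11873 and 9151 CPM, against 7267 and 7509 CPM. Of the 8 at 20 CPM or more, 4 were higher and 3 lower in both libraries, beside 33.8% and 29.2% of all 5824 genes. Krt5 and Krt14 were asked of every keratinocyte by the rule, so their presence was fixed in advance. In members Krt5 was at 3713 and 3796 CPM, and in keratinocytes with 0 or 1 of the 5 genes at 2368 and 2488 CPM. Krt14 was at 7552 and 4536 CPM in members, and at 3769 and 3112 CPM in those cells.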

How the data were processed

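The deposited matrices hold UMI counts, whole numbers per gene and barcode with no normalization. Per the submitters' processing notes, the authors used Cell Ranger 3.1.0, mm10 and Seurat 3.1. Their gene models are not stated. GENCODE M21 (GRCm38) held 30934 of the 31053 features and gave coordinates. Replicate 1 had 6592 barcodes and 52344178 UMIs, and replicate 2 had 5080 and 38678103. The gene and mitochondrial limits left 3918 and 3041 cells.

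UMIs were summed per library over members and over other kept keratinocytes and scaled to CPM. Differences are log2 ratios with 1 CPM added, taken within each library, and a gene was counted when it was at least 2-fold different in both. Since the rule used these counts, no test was run. Named genes were the 20 of the rule, the 20 highest and 10 lowest of the rest at 20 CPM or more by the smaller of the library differences, and up to 4 examples from each of 46 other lists. Genes split by cycling, Krtdap or Dct, and those that differed between libraries, were chosen after their values were seen. Shares have exact Clopper-Pearson 95% intervals. Thinning drew 5000 UMIs per cell and left out shallower cells, 1 and 3 members and 183 and 180 others. Doublets were scored with Scrublet (scanpy 1.11.5). Its threshold called 0 cells, so the highest ranks were marked, 255 and 139 cells, and left out only as an alternative. Free RNA was not removed. Scaling factors came from edgeR 4.0.16 (TMM) and DESeq2 1.42.0 in R 4.3.3, and other steps used Python 3.11.15, numpy 2.4.6, scipy 1.17.1 and pandas 2.3.3. The members and gene lists were chosen with earlier results of these data known.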

Additional observations from a re-analysis of the deposited data

How the results depend on the processing

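The share of members was 8.52% on average; it was 17.6% with at least 2 of the 5 genes, 4.13% with at least 4, 4.83% with the rule applied after thinning and 14.3% without limit genes, and ranged from 3.28% to 13.8% when either library was left out. The 72 higher and 269 lower genes became 34 and 134 with at least 2 of the 5 genes. With at least 4 genes, 462 were lower. Without limit genes 208 were higher, with the rule applied after thinning 111, with the mean of each cell 115, and against a comparator of cells with 0 or 1 gene, chosen after seeing the data, 243. Among cells with under 3 cycling markers on both sides the counts were 165 and 491, with a 20 CPM minimum 26 and 110, and with 10 CPM added 9 and 72. Counted in 1 library alone, they ranged from 250 to 618 higher and from 528 to 897 lower. TMM gave 58 and 321, DESeq2 size factors 66 and 313. The median of 14864 UMIs per member became 12688 with at least 2 genes, 16912 with at least 4, 13864.5 without limit genes, 14308 at up to 20% mitochondrial UMIs, 13844 without the highest Scrublet scores and 12229 after thinning; it was 14577.5 and 15151 in the single libraries. The cycling share of 44.9% was 37.6% and 52.2% in the single libraries. Over the settings its mean ranged from 36.4% with the rule applied after thinning to 53.2% with at least 4 genes. In replicate 1 the rule after thinning gave 25.6% of only 43 cells, below the 28.4% of keratinocytes that were not members at full depth. Of 30 named genes outside the rule, 29 kept their sign under all 17 settings, and 5 of the 20 highest and 10 of the 10 lowest also stayed 2-fold in both libraries. Kif20a, a mitotic kinesin, turned to -0.78 among cells with under 3 cycling markers, where it was at 0 CPM in members of both libraries. Without the limits, the limit genes Ly6d, Krt77 and Cidea turned to 0.29, 0.20 and 0.16. Beyond these constructions, the cause was not tested. No paired analysis was possible because no test was run; differences were already taken within each library. The main limits are depth, since the rule favours deep cells, the unequal libraries, and the absence of a second group.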

Other observations

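No gene of the glycolysis, cholesterol, oxidative phosphorylation and heat shock lists was 2-fold different in both libraries. Among all 5824 genes at 20 CPM or more, only 0.446% were 2-fold higher and 1.89% lower, so few were to be looked for in lists of this size. At any size of difference, 33.8% of all genes were higher and 29.2% lower in both libraries. Of 12 glycolysis genes, 9 were higher in members of both libraries, and 5 with TMM or DESeq2 scaling. Hk2, hexokinase 2, was at 36.5 and 37.7 CPM in members, against 14.3 and 23.4 CPM. Of 16 cholesterol synthesis genes, 8 were higher and 5 lower, with Hmgcs1, which makes a precursor of cholesterol, at 149 and 125 CPM against 83.5 and 87.8 CPM. Of 50 oxidative phosphorylation genes, 4 were higher and 19 lower. Of 22 immediate early genes, which respond to tissue handling, 9 were higher and 5 lower in both libraries, and Klf2 alone was 2-fold higher in both. Of 13 heat shock genes, 6 were higher and 2 lower.

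Members also varied in how much of each gene they held. Sostdc1 had a median of 5 UMIs per member in each library and a highest value of 64 in replicate 1 and 82 in replicate 2. Gm973 had medians of 1 and 3 UMIs, with highest values of 8 and 16. Krtdap had a median of 0 in both, with highest values of 77 and 154.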
